A study of Homo sapiens with 6 samples.

Results

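The long run of zinc finger genes on human chromosome 19 was followed in PANC-1 cells in which RRM2 had been knocked down. Members were the protein-coding genes of chromosome 19 whose symbol is ZNF, a number and at most 1 letter, taken from the NCBI symbol of each Gene ID in the count table. The rule found 246 genes among the 42902 Gene IDs, 83 on the short arm (19p) and 163 on the long arm (19q). The rule used names and positions, and no measured value. PANC-1 is an established human pancreatic cancer cell line, and the RRM2 protein belongs to ribonucleotide reductase, which supplies deoxyribonucleotides for DNA synthesis. The groups were cells carrying an anti-RRM2 short hairpin RNA (genotype and treatment shRRM2, 3 libraries) and non-targeting control cells (shNC in the design, treatment shControl, genotype WT, 3 libraries). By the labels both groups carried a hairpin, while the count table names its RRM2 columns si-RRM2; these were matched to the shRRM2 samples by gene and number. Poly-A RNA was sequenced as RNA-seq to look for genes downstream of RRM2. The labels do not say whether libraries came from separate cultures or how many hairpins were used, so each p-value reflects library-to-library spread alone, and that spread may be technical.

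Most of these genes encode proteins with a row of C2H2 zinc fingers that read DNA, and a KRAB domain at the amino end. In that class the KRAB domain binds TRIM28, which brings SETDB1, heterochromatin protein 1 and histone deacetylases to the bound DNA. Many such proteins silence transposable elements. The genes arose by repeated tandem duplication, stand side by side in clusters along chromosome 19, and are themselves covered by repressive histone marks in many cell types.

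To show what the promoters of the clusters look like, 6 are printed from RefSeq (GRCh38.p14). Each runs from 250 bases before to 50 bases after the start listed for that promoter. For ZNF442, ZNF43 and ZNF146 the whole window lies inside the gene's span, downstream of its outer end. ZNF442 had the largest called rise on 19p and ZNF616 that on 19q. ZNF91 and ZNF43 lie in the same 19p cluster, and ZNF91 was transcribed while ZNF43 had no count. ZNF585B is the member of a pair of close copies with more reads, and ZNF146 was the most abundant member. Capitals mark CCAAT, the box bound by NF-Y, and CCGGAAGT, a word bound by ETS factors, on either strand.
ZNF442, chr19:12365634-12365933, minus strand: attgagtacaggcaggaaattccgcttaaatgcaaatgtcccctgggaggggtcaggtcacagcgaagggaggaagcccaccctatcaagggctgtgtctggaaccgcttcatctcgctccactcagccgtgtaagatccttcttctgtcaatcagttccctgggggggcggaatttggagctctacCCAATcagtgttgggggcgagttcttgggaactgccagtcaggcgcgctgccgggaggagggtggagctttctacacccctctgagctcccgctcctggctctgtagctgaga
ZNF91, chr19:23395422-23395721, minus strand: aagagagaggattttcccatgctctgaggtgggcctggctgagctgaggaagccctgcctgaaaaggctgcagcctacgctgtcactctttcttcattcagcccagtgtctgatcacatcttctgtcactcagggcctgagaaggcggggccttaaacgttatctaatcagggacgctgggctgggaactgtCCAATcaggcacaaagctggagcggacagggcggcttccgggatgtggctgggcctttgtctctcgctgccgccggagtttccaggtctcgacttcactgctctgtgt
ZNF43, chr19:21836133-21836432, minus strand: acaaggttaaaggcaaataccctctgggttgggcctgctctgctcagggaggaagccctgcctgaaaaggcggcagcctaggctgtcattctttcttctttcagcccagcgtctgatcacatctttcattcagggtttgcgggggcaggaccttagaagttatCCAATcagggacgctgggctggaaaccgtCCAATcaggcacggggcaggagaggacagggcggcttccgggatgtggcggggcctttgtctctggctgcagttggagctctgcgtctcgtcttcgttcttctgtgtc
ZNF616, chr19:52139889-52140188, minus strand: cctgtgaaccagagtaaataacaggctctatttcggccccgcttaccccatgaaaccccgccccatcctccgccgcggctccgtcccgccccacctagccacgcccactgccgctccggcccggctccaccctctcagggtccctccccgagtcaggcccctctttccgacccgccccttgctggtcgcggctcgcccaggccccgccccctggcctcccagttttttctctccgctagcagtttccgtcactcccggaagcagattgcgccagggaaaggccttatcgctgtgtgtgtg
ZNF585B, chr19:37210487-37210786, minus strand: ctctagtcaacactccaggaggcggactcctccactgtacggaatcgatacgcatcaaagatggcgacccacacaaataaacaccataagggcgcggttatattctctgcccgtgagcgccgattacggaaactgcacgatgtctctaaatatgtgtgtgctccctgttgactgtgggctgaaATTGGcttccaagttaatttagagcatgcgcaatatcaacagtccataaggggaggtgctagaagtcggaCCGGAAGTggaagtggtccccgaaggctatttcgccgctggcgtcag
ZNF146, chr19:36214856-36215155, plus strand: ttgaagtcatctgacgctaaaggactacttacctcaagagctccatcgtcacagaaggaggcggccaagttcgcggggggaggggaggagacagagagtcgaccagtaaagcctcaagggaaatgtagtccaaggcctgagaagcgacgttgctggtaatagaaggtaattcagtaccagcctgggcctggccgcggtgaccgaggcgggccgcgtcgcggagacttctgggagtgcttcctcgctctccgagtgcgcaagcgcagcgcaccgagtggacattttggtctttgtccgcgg
The 19p promoters printed carry CCAAT, ZNF585B on 19q carries both words, and ZNF616 and ZNF146 carry neither.

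RRM2 itself (Gene ID 6241) had 716, 808 and 716 counts in the shRRM2 libraries, against 3567, 4435 and 3342 counts in the shNC libraries. Its log2 fold change was −2.31 (SE 0.0443, adjusted p = 3.66e-29). All log2 fold changes are shRRM2 over shNC from edgeR's quasi-likelihood test, with Benjamini-Hochberg adjustment over the 15866 genes tested and a threshold of 0.05 for a call of higher or lower. Library totals were 17442948 to 19740706 counts for shRRM2 and 16606947 to 23300433 counts for shNC. The epithelial markers KRT8, KRT18, KRT7, KRT19 and EPCAM summed to 3345 to 3406 CPM (counts per 1000000 counts) in shRRM2 libraries and 2513 to 2607 CPM in shNC libraries. KRT8, KRT18 and EPCAM were higher (log2 fold changes 0.60, 0.45 and 1.47), KRT7 was lower (−0.07, adjusted p = 0.0442), and KRT19 stayed below the filter on low counts. EPCAM was hardly transcribed, with 12, 16 and 11 counts in shRRM2 libraries and 4, 3 and 7 in shNC libraries (SE 0.547, adjusted p = 0.024). Summed markers of immune cells reached 80.7 to 84.1 CPM in shRRM2 libraries and 26.0 to 26.9 CPM in shNC libraries, nearly all of it CD68, which also marks lysosomes, with CD3E at 0. Fibroblast markers summed to 1.58 to 1.71 CPM and 0.514 to 0.563 CPM, and endothelial markers to 2.87 to 3.28 CPM and 1.15 to 1.37 CPM, shRRM2 first in each pair. The part of these markers in the results was not tested.

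Together the chromosome 19 members rose a little in shRRM2 cells. Their summed level was 2501.4, 2498.0 and 2471.9 CPM in the shRRM2 libraries, against 2240.0, 2210.4 and 2285.8 CPM in the shNC libraries. Every shRRM2 library lay above every shNC library. The means were 2490.4 ± 16.1 CPM and 2245.4 ± 38 CPM (SD, n = 3 each), a ratio of 1.11. The 19p members accounted for most of it, with 795.6, 801.4 and 783.9 CPM in shRRM2 libraries and 631.9, 635.7 and 662.3 CPM in shNC libraries, a ratio of 1.23. The 19q members had 1705.8, 1696.6 and 1688.1 CPM in shRRM2 libraries and 1608.1, 1574.7 and 1623.5 CPM in shNC libraries, a ratio of 1.06. The 263 ZNF-number genes on other chromosomes summed to 5560.4 ± 60.8 CPM and 5402.8 ± 22.8 CPM, a ratio of 1.03. Within a library, the reads of 19p members per read of 19q members came to 0.466, 0.472 and 0.464 in shRRM2 cells, against 0.393, 0.404 and 0.408 in shNC cells, and these groups did not overlap either. With 3 libraries against 3, an exact permutation test cannot go below p = 0.1, so no p is given for the sums. In RNA from a population of cells, less RNA per cell and fewer cells with a transcript cannot be told apart.

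**Figure D1:**
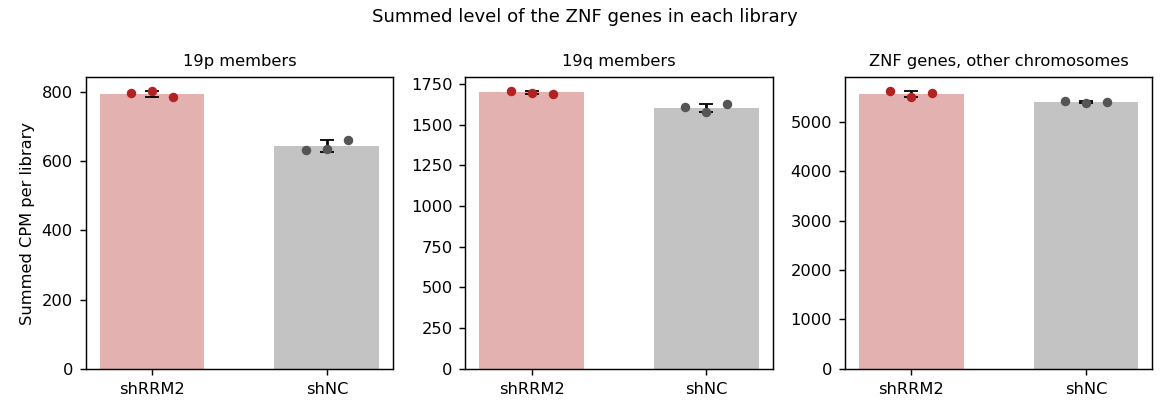
Summed CPM of the zinc finger members of 19p, of 19q and of the ZNF-number genes on other chromosomes, 1 point per library, with shRRM2 left of shNC; the bar is the mean and the error bar the SD of 3 libraries. The 19p sums were 783.9 to 801.4 CPM in shRRM2 libraries and 631.9 to 662.3 CPM in shNC libraries.

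Of the 246 members, 181 passed the filter on low counts and were tested, 56 on 19p and 125 on 19q. Among them 68 were higher in shRRM2 cells (37.6%) and 15 were lower (8.29%), while over all tested genes 26.0% were higher and 26.1% lower. The other 98 tested members were not called. The median log2 fold change of the tested members was 0.24 (quartiles 0.03 and 0.40), against −0.01 over all tested genes, and 139 of the 181 values were above 0. The CPM of 81 tested members in the shRRM2 libraries all lay above those in the shNC libraries, and those of 15 all lay below, while over all tested genes 29.2% lay above and 28.6% below. The changes were small: 4 called members rose at least 2-fold (ZNF442, ZNF823, ZNF699 and ZNF616), and with a fall of that size edgeR and DESeq2 called 0 members and limma-voom 1. At an unadjusted edgeR p under 0.05 there was 1 such fall, that of ZNF497 (log2 fold change −1.18, adjusted p = 0.0633), named after its value was seen. Without shNC replicate 3 the count of lower members was 9, where 23.8% of all tested genes were lower and 23.8% higher.

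The arms differed in their counts. On 19p, 31 of 56 tested members were higher (55.4%) and 2 were lower, with a median log2 fold change of 0.36 and 50 values above 0. On 19q, 37 of 125 were higher (29.6%) and 13 were lower (10.4%), with a median of 0.19 and 89 values above 0. Over all tested genes 26.0% were higher and 26.1% lower, so the 19q share called higher was near that of all genes. The other protein-coding genes of 19p had a median of 0.01 (31.0% higher, 27.8% lower of 381 tested), and those of 19q a median of 0.08 (36.2% higher, 22.5% lower of 351 tested). Among the 216 tested ZNF-number genes of other chromosomes the median was 0.06, with 29.2% higher and 16.7% lower. The 19q count of lower members was 8 without shNC replicate 2 (23.0% of all tested genes were then lower) and 7 without shNC replicate 3. The 19p count of lower members was 1 without shRRM2 replicate 1 (23.3% of all genes lower) or without shNC replicate 1 (23.4% lower, 23.9% higher). The difference between the arms, and that between the members and other genes, was not tested.

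**Figure D2:**
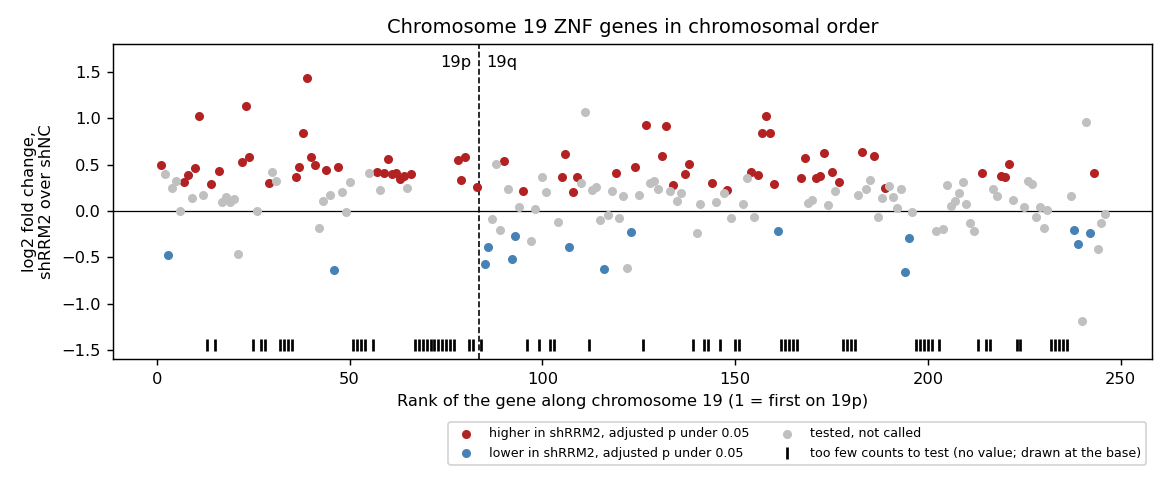
Log2 fold change (shRRM2 over shNC) of the 181 tested zinc finger members in their order along chromosome 19, coloured by call; the dashed line is the arm boundary, and ticks at the base mark the 65 members below the filter, which have no value. On 19p 50 of 56 points lie above 0 and on 19q 89 of 125.

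The members were weakly expressed, and the number of reads behind a gene limits what the test can call. Per kilobase of exon the tested members had a median of 1.92 CPM, 1.67 on 19p and 2.02 on 19q, against 6.28 CPM per kilobase over all tested protein-coding genes. Grouped by mean CPM over the 6 libraries, 10 of 48 members between 1 and 5 CPM were higher (20.8%) and 2 were lower, where 22.4% and 10.3% of all tested genes of that level were. Between 5 and 20 CPM, 44 of 97 members were higher (45.4%) and 7 were lower (7.22%), against 26.8% and 21.8% of all genes. At 20 CPM or more, 14 of 32 were higher (43.8%) and 6 were lower (18.8%), against 28.7% and 36.6%. The remaining 4 tested members had under 1 CPM, and edgeR called none of them, where 15.2% of all genes of that level were higher and 6.20% lower; DESeq2 called 0 and limma-voom 1 of these 4, and 2 had an unadjusted edgeR p under 0.05.

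The arms also differed among members of like level. Between 5 and 20 CPM, 18 of 23 members on 19p were higher and 1 lower, with a median log2 fold change of 0.40, and on 19q 26 of 74 were higher and 6 lower, with a median of 0.21. At 20 CPM or more, 7 of 11 members on 19p were higher and the other 4 were not called (median 0.32), whereas on 19q 7 of 21 were higher and 6 lower (median 0.05). Those 19q shares (33.3% higher, 28.6% lower) were near the 28.7% and 36.6% of all tested genes at 20 CPM or more. Between 1 and 5 CPM, 6 of 21 were higher on 19p (28.6%) and 4 of 27 on 19q (14.8%), with 1 lower on each arm. Of all tested genes at that level 22.4% were higher and 10.3% lower. Between 5 and 20 CPM the shares of all genes were 26.8% and 21.8%.

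**Figure D3:**
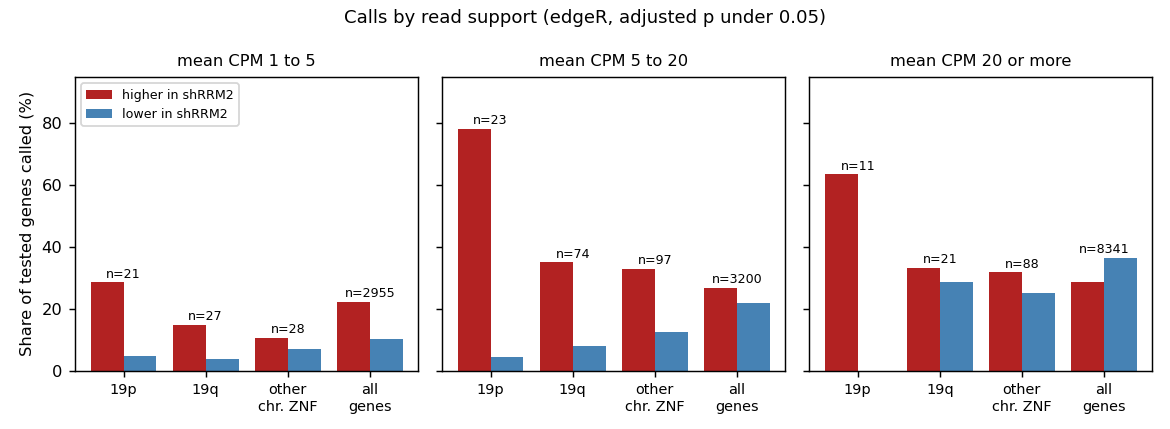
Percent of tested genes called higher or lower in shRRM2 cells (y axis), in 1 panel per range of mean CPM over the 6 libraries, for members of 19p, members of 19q, ZNF-number genes of other chromosomes and all tested genes. Between 5 and 20 CPM, 78.3% of the 19p members and 35.1% of the 19q members were called higher, against 26.8% of all genes.

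Members were grouped into clusters wherever neighbours lay within 1000000 bases of each other, and the clusters differed in their counts. Over all tested genes 26.0% were higher and 26.1% lower, and no difference between clusters was tested. The 19p cluster at 11483429 to 12633834 (GRCh38.p14) had 11 of 18 tested members higher and 7 not called, with a median log2 fold change of 0.43. The 19p cluster at 19668153 to 24129968, next to the centromere, had 13 of 19 tested members higher and 6 not called, with a median of 0.40. The 19p cluster at 7069703 to 9786160 had 6 of 13 higher and the rest not called. On 19q the cluster at 51571283 to 53580269 came closest to these, with 15 of 28 higher, 1 lower and a median of 0.34. The cluster at 43530835 to 45076478 had 8 of 20 higher and 1 lower. The cluster at 36182060 to 37779586 had 5 of 21 higher (23.8%, near the share of all tested genes) and 4 lower (19%). The largest cluster, at 55476617 to 58489533 near the end of the long arm, had 6 of 43 higher (14%), 5 lower (11.6%) and a median of 0.07. Both shares lie below those of all tested genes. The 19p cluster at 2819868 to 2944971 had 1 of 5 tested members higher and 1 lower (20% each), with a median of 0.33. The 19q cluster at 34675979 to 34964229 also had 1 of 5 higher and 1 lower (20% each), with a median of −0.09. All remaining clusters had fewer than 5 tested members.

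Of 166 pairs of tested members next to each other within a cluster, both were called higher in 32. With 37.6% of all tested members called higher, some such pairs arise without any tie between neighbours. The Pearson correlation of the log2 fold changes of neighbours was 0.244. Whether neighbours changed together was not tested. In order along the chromosome, and counting tested members only, ZNF136, ZNF44, ZNF563, ZNF442, ZNF799 and ZNF443 (12163096 to 12441021) were all called higher, with log2 fold changes of 0.37 to 1.43. ZNF430, ZNF714, ZNF431, ZNF708, ZNF738 and ZNF493 (21020657 to 21427577) were likewise all called higher, by 0.34 to 0.56. The same held for ZNF100, ZNF724, ZNF91, ZNF675 and ZNF254 (0.26 to 0.58), between which silent members lie, and on 19q for ZNF432, ZNF841, ZNF616, ZNF836 and ZNF766 (52031378 to 52296046; 0.29 to 1.02). These runs were picked out after their values were seen and have no test. In the first of them ZNF442 and ZNF563 overlap each other in RefSeq. Of the 50-base words of ZNF799 and ZNF443, 34.5% and 34.9% also occur in other genes. Reads of these members may thus be counted for another gene, which was not tested.

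ZNF442 on 19p (Gene ID 79973) had the largest rise. It had 2.83, 2.46 and 2.59 CPM in the shRRM2 libraries, against 0.799, 0.866 and 1.27 CPM in the shNC libraries. The groups did not overlap, but the shNC values rest on few reads. Its log2 fold change was 1.43 (SE 0.295, adjusted p = 1.15e-04). The gene of ZNF442 overlaps that of ZNF563 in RefSeq. ZNF823, in the same cluster (Gene ID 55552), had 5.42, 3.82 and 6.18 CPM in shRRM2 cells and 2.40, 2.34 and 2.24 CPM in shNC cells. Its rise on the log2 scale was 1.14 ± 0.208 (SE), with adjusted p = 2.32e-05. ZNF699 (Gene ID 374879) had 7.40, 10.2 and 6.90 CPM in shRRM2 cells and 3.54, 4.77 and 3.58 CPM in shNC cells, which gave 1.03 ± 0.173 (log2 fold change ± SE) and adjusted p = 6.13e-06. ZNF563 had 1.98, 1.96 and 2.37 CPM, against 1.31, 1.26 and 0.910 CPM. Its log2 fold change of 0.84 (adjusted p = 0.0182) missed the threshold when shRRM2 replicate 3 was left out (adjusted p = 0.0671), and likewise for shNC replicate 3 (adjusted p = 0.0703).

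On 19q the best supported rises were those of ZNF616 and ZNF45. ZNF616 (Gene ID 90317) had 16.3, 15.5 and 15.8 CPM in shRRM2 libraries, against 7.25, 7.93 and 8.31 CPM in shNC libraries, so that every shRRM2 value was above every shNC value by a wide margin. Its log2 fold change was 1.02 (SE 0.115, adjusted p = 3.82e-09). ZNF45 (Gene ID 7596) had 22.4, 25.4 and 23.6 CPM, against 12.4, 12.9 and 12.2 CPM in shNC libraries. It rose by 0.93 (SE 0.0941, adjusted p = 4.04e-10). ZNF223, in the cluster of ZNF45, and ZNF836, beside ZNF616, rose by 0.91 and 0.84 (adjusted p = 0.00109 and 0.000522). ZNF841, which lies between ZNF432 and ZNF616 and is named here after its value was seen, had 34.2, 31.7 and 29.5 CPM in shRRM2 cells and 14, 18.8 and 20.4 CPM in shNC cells (log2 fold change 0.84, adjusted p = 1.68e-07).

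**Figure D4:**
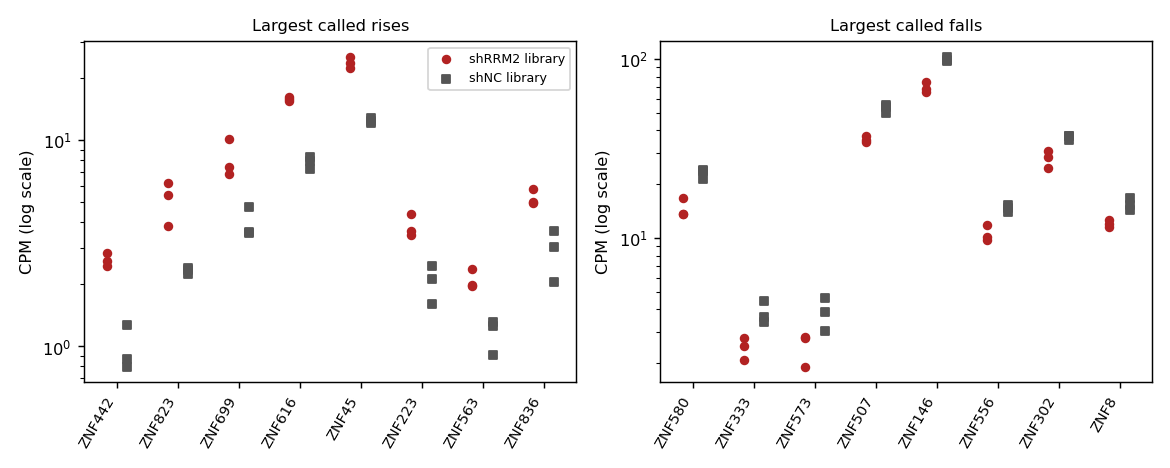
CPM of each library (points, log axis) for the 8 members with the largest called rises (left panel) and the 8 with the largest called falls (right panel), with shRRM2 left of shNC for each gene. ZNF616 had 15.5 to 16.3 CPM in shRRM2 libraries and 7.25 to 8.31 CPM in shNC libraries, and ZNF146 had 65.7 to 74.6 CPM and 97.5 to 103 CPM.

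The falls were fewer and smaller, and 13 of the 15 were on 19q. ZNF146 (Gene ID 7705, 36214723 to 36238768), whose protein consists of zinc fingers with no KRAB domain, was the most abundant member, at 20.4 CPM per kilobase of exon. It had 68.3, 74.6 and 65.7 CPM in shRRM2 libraries, against 98.5, 97.5 and 103 CPM in shNC libraries. The groups lay well apart, and its log2 fold change was −0.52 (SE 0.0497, adjusted p = 1.13e-10). ZNF507 (Gene ID 22847) had 35.5, 34.5 and 37.1 CPM in shRRM2 cells and 55.3, 50.3 and 54.2 CPM in shNC cells. The log2 fold change of ZNF507 was −0.58 ± 0.0620 (SE), with adjusted p = 1.44e-09. ZNF580 (Gene ID 51157) had the largest called fall, with 13.6, 16.7 and 13.6 CPM in shRRM2 cells and 21.3, 24.2 and 23.7 CPM in shNC cells (log2 fold change −0.65, SE 0.0977, adjusted p = 8.75e-07). Its gene overlaps ZNF581 in RefSeq, for which the log2 fold change was 0.24 (adjusted p = 0.107). ZNF302 and ZNF8 fell by 0.39 and 0.36 (adjusted p = 4.72e-05 and 0.00523), and ZNF556 on 19p fell by 0.47 (adjusted p = 0.000622).

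The calls of ZNF333 and ZNF573 each depended on single libraries. ZNF333 on 19p had 2.09, 2.51 and 2.76 CPM in shRRM2 cells, against 4.45, 3.64 and 3.40 CPM in shNC cells, a log2 fold change of −0.64 (adjusted p = 0.0126). ZNF333 missed the threshold when shRRM2 replicate 1 was left out (adjusted p = 0.0595), and likewise for shNC replicate 1 (adjusted p = 0.0760). ZNF573 had 1.92, 2.82 and 2.76 CPM, against 3.02, 4.64 and 3.88 CPM, a log2 fold change of −0.63 (adjusted p = 0.0170). ZNF573 missed it when shRRM2 replicate 1 was left out (adjusted p = 0.0988), and likewise for shNC replicate 2 (adjusted p = 0.147).

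Several of the members with the highest CPM were level between the groups. ZNF121 had 77.3, 75.2 and 77.1 CPM in shRRM2 cells and 65.2, 73.9 and 76.0 CPM in shNC cells, which overlap (log2 fold change 0.09, adjusted p = 0.142). ZNF320 and ZNF587 had log2 fold changes of 0.07 and 0.04 (adjusted p = 0.352 and 0.565). ZNF431, in the cluster next to the centromere, had 57.9, 63.6 and 57.0 CPM, against 44.4, 43.5 and 47.5 CPM in shNC cells, and rose by 0.40 (SE 0.0592, adjusted p = 6.59e-07). After ZNF146, the members with the most reads per kilobase of exon were ZNF358 at 17.8 CPM and ZNF121 at 10.2 CPM.

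Of 12 members with a described role, 8 were tested. ZNF91 and ZNF224 were called higher, ZNF146 was called lower, and the other 5 were not called. Over all tested genes 26.0% were higher and 26.1% lower, so the share called higher was near that of all genes. ZNF91, which silences SVA retrotransposons in human cells, had 47.3, 50.2 and 46.8 CPM in shRRM2 libraries, against 38.3, 37.3 and 39.2 CPM in shNC libraries. It rose by 0.33 (SE 0.0613, adjusted p = 2.41e-05), with no overlap between the groups. ZNF224, a KRAB repressor of the aldolase A gene, had 12.6, 13.0 and 13.1 CPM, against 9.42, 10.4 and 12.3 CPM. Its log2 fold change of 0.28 (adjusted p = 0.0476) lay at the threshold, and 5 of the 6 fits that left out 1 library missed it, as given with the processing. ZNF274, which binds the 3′ ends of zinc finger genes and recruits SETDB1 there, had a log2 fold change of 0.16 (adjusted p = 0.274). ZNF331, an imprinted gene, had −0.07 (adjusted p = 0.473), and ZNF420, described as a negative regulator of p53, had −0.12 (adjusted p = 0.473). ZNF558 had 0.14 (adjusted p = 0.305) and ZNF85 had 0.22 (adjusted p = 0.393).

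The remaining members with a described role were hardly transcribed in these cells. ZNF43 and ZNF568 had no count in any library, ZNF93, which silences L1 elements, had 4 counts over the 6 libraries, and ZNF382 had 27. They belong to the 65 members below the filter on low counts, 27 on 19p and 38 on 19q. Of these, 35 had no count in any library and 55 had under 10 counts over all libraries. The longest run of members below the filter comprised 11 genes, from ZNF43 to ZNF730 (21804946 to 23147221), of which none exceeded 7 counts in all. It lies inside the cluster next to the centromere, in which 13 of the 19 tested members rose, between ZNF100 and ZNF724.

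Close copies were examined because reads of 1 gene can be counted for its neighbour. ZNF417 and ZNF587 share 98.1% of residues over 575 aligned, and both were level (log2 fold changes 0.00 and 0.04). ZNF585A and ZNF585B share 94.5% over 769 aligned residues. The coding sequence of the first zinc finger of each is printed, with capitals at the 9 of 84 bases that differ.
ZNF585A, chr19:37153338-37153421, minus strand: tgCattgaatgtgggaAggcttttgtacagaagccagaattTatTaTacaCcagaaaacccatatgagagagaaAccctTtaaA
ZNF585B, chr19:37186976-37187059, minus strand: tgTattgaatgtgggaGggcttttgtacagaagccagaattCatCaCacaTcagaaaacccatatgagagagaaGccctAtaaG
ZNF585B had 18.8, 17.4 and 15.7 CPM in shRRM2 cells, against 11.5, 10.4 and 12.2 CPM in shNC cells, and rose by 0.61 (SE 0.108, adjusted p = 1.34e-05). ZNF585A had 7.23, 8.30 and 8.11 CPM, against 5.65, 6.32 and 6.43 CPM, a log2 fold change of 0.36 (adjusted p = 0.0333). That call was lost under several alternatives, with adjusted p of up to 0.121 without shNC replicate 1. Of their 50-base words, taken at every position of the transcript, 14.5% for ZNF585A and 20.6% for ZNF585B also occur in other genes. Reads may thus be split between the copies. ZNF324 and ZNF324B share 91.1% of 508 aligned residues, and had log2 fold changes of −0.13 (adjusted p = 0.259) and 0.40 (adjusted p = 0.00770).

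Over all members, sequence shared with other genes varied widely, and the members were grouped by it after the data had been seen. Among the 93 tested members with under 1% of their 50-base words found in other genes, 28 were higher and 10 lower (30.1% and 10.8%, against 26.0% and 26.1% over all tested genes), with a median log2 fold change of 0.18. The median was 0.32 for those on 19p, where 9 of 19 were higher and 1 lower, and 0.15 for those on 19q, where 19 of 74 were higher and 9 lower (25.7% and 12.2%). The share called higher was thus near that of all genes for these 19q members. Of 65 tested members with 1 to 10% shared, 29 were higher and 4 lower, and of 23 with 10% or more, 11 were higher and 1 lower. The part of shared reads in the rises was not tested. Another RefSeq gene overlaps 128 of the 246 members; among the 88 tested members with no overlap, 34 were higher and 5 lower, with a median of 0.21.

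The predicted proteins were sorted by what they carry. A KRAB-like pattern was found in 207 of the 246 members, and 58 of the 148 tested among them were higher and 10 lower (39.2% and 6.76%), with a median log2 fold change of 0.26. Of the 33 tested members without the pattern 10 were higher and 5 lower (30.3% and 15.2%), with a median of 0.14, so that their share called higher was near the 26.0% of all tested genes. The number of C2H2 fingers had a median of 12 and reached 36 in ZNF208, which had no count in any library. Of tested members with 1 to 9 fingers 13 of 48 were higher (27.1%, again near that share) and 9 lower, with 10 to 14 fingers 30 of 74 were higher and 5 lower, and with 15 or more 24 of 58 were higher and 1 lower. ZNF91, with 31 fingers, belongs to the last group.

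The arms also differ in promoter sequence, which no expression value enters. Searched words were CCAAT (NF-Y), CCGGAAGT (ETS), GGGCGG (Sp1), AAGATGGCG (YY1), TGACGTCA (CREB), TTTCCCGC (E2F) and the palindromic NRF1 word, on both strands in the 300 bases of each of 216 members with a RefSeq promoter; no word contains another. CCAAT was present in 60 of 73 promoters on 19p (82.2%) and in 56 of 143 on 19q (39.2%), where 36.5% of all protein-coding promoters held it. CCGGAAGT was present in 1 of 73 on 19p (1.37%) and in 44 of 143 on 19q (30.8%), against 6.24% of all protein-coding promoters. GGGCGG was found in 82.2% on 19p and 60.1% on 19q, against 58.8%. Each of the other words stood in under 7% of the promoters of either arm. A median of 15 CpG dinucleotides was counted per promoter on 19p and of 23 on 19q, against 22 over all protein-coding promoters.

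**Figure D5:**
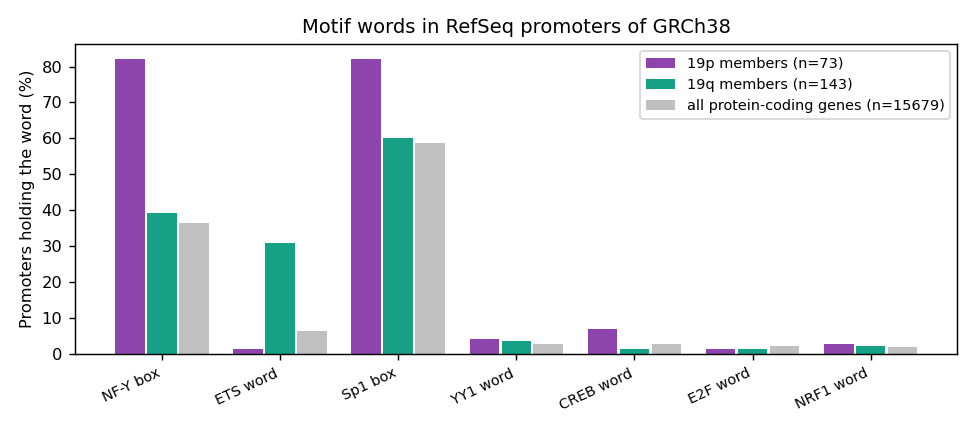
Percent of promoters (300 bases around the RefSeq start) that hold each searched word, for members of 19p, members of 19q and all protein-coding genes. The NF-Y box was present in 82.2% of 19p and 39.2% of 19q promoters, and the ETS word in 1.37% and 30.8%.

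Set beside the calls, CCAAT did not mark higher members in both arms. Over all tested genes 26.0% were higher and 26.1% lower. On 19p, 24 of 38 tested members with CCAAT were higher and 1 lower (median log2 fold change 0.40), as were 6 of 13 without it, with 1 lower (median 0.15). On 19q, 10 of 47 with CCAAT were higher and 5 lower (median 0.14), against 21 of 63 without it, with 7 lower (median 0.21). All 29 promoters of the cluster next to the centromere held CCAAT, whether the member was transcribed or not, and so did all 22 promoters of 19p members below the filter. On 19q, 12 of 35 members with CCGGAAGT were higher and 1 lower (median 0.24), against 19 of 75 without it, with 11 lower (median 0.14). Word and cluster are mixed in these counts. Of the 13 tested 19p members without CCAAT, 10 lie in the cluster at 7069703 to 9786160. In that cluster the median was 0.22 without CCAAT and 0.29 for the 2 with it. The largest 19q cluster holds 27 of the 47 tested members with CCAAT and 21 of the 35 with CCGGAAGT. A match of letters is a description of the window and says nothing of whether the factor binds, and none of these differences was tested.

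The partners through which KRAB zinc finger proteins silence DNA were read from a list of 22 genes, ZNF274 among them, all of which were tested. Of these, 5 were higher and 10 lower in shRRM2 cells, with a median log2 fold change of −0.07, where 26.0% of all tested genes were higher and 26.1% lower. All but ZNF274 and MORC3 had a mean of 20 CPM or more. Of all tested genes at that level, 28.7% were higher and 36.6% lower, and the cofactors were not tested against them. TRIM28, the scaffold bound by the KRAB domain, whose gene itself lies near the end of 19q (58544064 to 58550715), had 408, 392 and 406 CPM in shRRM2 libraries, against 476, 475 and 457 CPM in shNC libraries, and fell by 0.22 (SE 0.0307, adjusted p = 2.01e-07). SETDB1, the methyltransferase it recruits, had a log2 fold change of −0.02 (adjusted p = 0.772), while ATF7IP, the partner of SETDB1, fell by 0.54. The HP1 genes went different ways, with CBX5 at 0.38 and CBX3 at −0.56, both called, and CBX1 not called. Of the HUSH complex genes, MPHOSPH8 fell by 0.28 and PPHLN1 by 0.32, and TASOR was not called. UHRF1, which guides maintenance of DNA methylation, had 176, 187 and 172 CPM, against 278, 257 and 267 CPM in shNC libraries, and fell by 0.59 (adjusted p = 5.72e-15). DNMT1, the maintenance methyltransferase, fell by 0.21, ATRX by 0.48, SMARCAD1 by 0.38 and HDAC2 by 0.32. CHD3 (0.35), RESF1 (0.21), HDAC1 (0.16) and CHD4 (0.08) were higher; the calls of RESF1 and CHD4 were each lost in some of the fits that left out 1 library, and 3 cofactors were higher without shRRM2 replicate 1 (24.0% of all tested genes were then higher), without shNC replicate 2 (23.1%) or without shNC replicate 3 (23.8%).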

How the data were processed

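Poly-A RNA of 6 PANC-1 libraries (3 shRRM2, 3 shNC) was sequenced. The deposited values are raw counts of reads per NCBI Gene ID; per the submitters' processing notes, fastp 0.23.4, featureCounts and the build hg38 were used, and the strand setting is not given in the sources used here. Library totals were 16606947 to 23300433 counts. Gene IDs were joined to RefSeq GRCh38.p14 names (40120 of 42902 matched; the others hold 1.25% of counts). The members and gene lists were chosen with earlier results of these data known.

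The counts were tested with edgeR 4.0.16 (R 4.3.3) over all genes: filterByExpr, TMM factors, robust quasi-likelihood test, Benjamini-Hochberg adjustment and a threshold of 0.05. The standard error is the log2 fold change over the square root of F. CPM uses TMM-scaled library sizes, and CPM per kilobase the union of exons. The procedure was tested on simulated data. Alternatives were RLE factors, library size alone, other filters, DESeq2 1.42.0, limma-voom (limma 3.58.1), a replicate block, each library left out, a threshold of 0.01 and, chosen after seeing the data, members without shared words or overlapping genes.

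The genes named were the 8 largest rises and 8 largest falls among called members with a mean of at least 1 CPM and groups that did not overlap, the 6 members with the highest mean CPM, 12 members with a described role, 22 cofactors, the 3 tested pairs of closest proteins, and RRM2. Zinc fingers, the KRAB pattern and protein identity (BLAST 2.17.0) came from coding sequences of GENCODE 29 translated here, in place of the protein table planned. Shared sequence is the percent of a member's 50-base transcript words, taken at every position, that occur in genes not overlapping it. A gene of the marker list is not reported here.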

Additional observations from a re-analysis of the deposited data

How the results depend on the processing

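No alternative turned the direction of the medians or of a named gene that was called. Among named genes that were not called, values near 0 changed sign for SETDB1 with library size alone or without shNC replicate 3, and for ZNF417, ZNF331, CBX1 and TASOR in some of the fits that left out 1 library. With a threshold of 0.01, 39 members were higher and 7 lower (21.3% and 20.7% over all tested genes), 17 and 1 on 19p, 22 and 6 on 19q, and 3 cofactors were higher. Library size alone moved the median of all genes to 0.03. The median log2 fold change was then 0.28 for members, 0.39 on 19p and 0.23 on 19q. That fit called 76 members higher and 10 lower, 33 and 2 on 19p and 43 and 8 on 19q. DESeq2 called fewer members than the main fit, 52 higher and 10 lower, 24 and 2 on 19p and 28 and 8 on 19q. The shares of all genes called under library size alone and DESeq2 were not counted. A filter of 1 CPM gave a 19p median of 0.38. Members with under 1% of shared words had medians of 0.18 in all, 0.32 on 19p and 0.15 on 19q, and members without an overlapping gene 0.21, 0.38 and 0.16.

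When each library was left out in turn, 48 to 63 members were higher and 9 to 13 lower. On 19p these counts were 22 to 29 and 1 to 3, and on 19q 26 to 34 and 7 to 11. Of all tested genes, 24.0% were higher and 23.3% lower without shRRM2 replicate 1. Those shares were 23.9% and 23.4% without shNC replicate 1, 23.1% and 23.0% without shNC replicate 2, and 23.8% each without shNC replicate 3. They were not counted without shRRM2 replicates 2 and 3. The medians were 0.22 to 0.25 for members, 0.32 to 0.38 on 19p and 0.16 to 0.19 on 19q. Cofactors were higher for 3 to 5 genes and lower for 10 to 11, and RRM2 had −2.34 to −2.29. ZNF224 passed the threshold without shNC replicate 3, and had adjusted p of 0.0658, 0.0792 and 0.0862 without shRRM2 replicates 1, 2 and 3, and of 0.221 and 0.133 without shNC replicates 1 and 2. The cause of these moves was not tested.

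Libraries with the same replicate number did not deviate together (correlations of −0.00677, −0.00339 and −0.0208), so no pairing by number was seen. Such correlations cannot tell whether the libraries were prepared in pairs. With the replicate block 66 members were higher and 15 lower, and the medians were 0.24, 0.36 on 19p and 0.19 on 19q. The share of all genes called with that block was not counted. Members with few reads limit the calls: 65 were not tested, and 4 tested members had under 1 CPM.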
